A study of Homo sapiens with 24 samples.

Results

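COX1, COX2, COX3, CYTB, ATP6 and ATP8 are the mitochondrially encoded genes for subunits of respiratory chain complexes III, IV and V. They were chosen by gene name, with earlier results of these data known, and make up 6 of the 54583 genes in the count table. PANC-1 cells derive from a human pancreatic duct carcinoma. They were exposed for 6 h to the solvent DMSO, to 40 µM CID661578 or to 5 µM cercosporamide. CID661578 is a compound studied as a ligand of the kinase MNK2, and cercosporamide is a known inhibitor of MNK kinases. Each treatment had 4 replicates. A replicate of a treatment is called a plate below, although the number of culture plates behind each is not stated. From each of these 12 plates, total cytosolic RNA and polysome-associated RNA, meaning RNA carrying more than 3 ribosomes, were sequenced, which gave 24 libraries. The labels give RPMI as the medium and the methods of the study DMEM. All groups are the same unmodified line, and the doses of the compounds differ, so the comparison between them is one of these doses at 6 h.

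The mitochondrial genome encodes a small set of core subunits of the respiratory chain and ATP synthase. Its genes are transcribed together as long precursors, which are cut mostly at the transfer RNAs between the genes, and the resulting mRNAs receive short poly(A) tails. They are translated inside the mitochondrion by mitochondrial ribosomes, whereas the other subunits of the same complexes are encoded in the nucleus and made by cytosolic ribosomes. The counts do not tell which kind of ribosome, or which other particle, carried a mitochondrial mRNA into the polysome fraction.

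The position of each gene is given on the mitochondrial chromosome of GRCh38 with RefSeq coordinates, and all 6 lie on the plus strand. COX1 (gene 4512) lies at chrM:5904-7445, COX2 (4513) at chrM:7586-8269, ATP8 (4509) at chrM:8366-8572, ATP6 (4508) at chrM:8527-9207, COX3 (4514) at chrM:9207-9990 and CYTB (4519) at chrM:14747-15887. The genes have no introns. The last 24 bases of each gene are shown because they are where the members differ in how they end, with the bases of the stop codon in capitals.
COX1: gaacccgtatacataaaatctAGA
COX2: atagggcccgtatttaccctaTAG
ATP8: cattcattgcccccacaatccTAG
ATP6: ctctacctgcacgacaacacaTAA
COX3: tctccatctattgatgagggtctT
CYTB: aaaacaaaatactcaaatgggccT
COX3 and CYTB end in a single T, and the poly(A) tail supplies the rest of the stop codon. The other members hold all 3 bases within their RefSeq coordinates. The last base of ATP6, chrM:9207, is also the first of COX3, and whether the ATP6 mRNA keeps it was not examined. ATP8 and ATP6 are carried on 1 mRNA and share 46 bases, which are shown with the start codon of ATP6 and the stop codon of ATP8 in capitals.
ATP8 and ATP6 overlap, chrM:8527-8572: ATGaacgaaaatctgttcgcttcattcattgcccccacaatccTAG
The counting used by the authors drops a read that overlaps both genes. Of the bases of ATP8, 161 of 207 are unshared, and of those of ATP6 634 of 681. A read that reaches from these into the shared bases is dropped too. The levels of ATP8 and ATP6 per kilobase are therefore too low by an amount that was not measured. ATP6 and COX3 share 1 base.

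Between 9268041 and 12184749 reads were counted on genes in 23 libraries and 1592459 in the polysome library of cercosporamide replicate 4. All 6 members were counted in every library, the lowest count being 21 for ATP8 in that shallow library, and all were among the 12058 genes tested. COX1 and COX2 are also used as names for the prostaglandin synthases, and these had rows of their own, PTGS1 with at most 4 and PTGS2 with at most 1 count per library. The duct and epithelial markers KRT8, KRT18 and KRT19 stood at 698 CPM or more in every library, while KRT7, SOX9 and EPCAM stayed between 2.96 and 52.3 CPM. The acinar, endocrine and immune markers PRSS1, CTRB1, INS, CHGA, PTPRC and CD3E were at 0 and CPA1, CELA3A and GCG had at most 14 counts, but the myeloid marker CD68 was counted between 464 and 8205 times. Levels are given as CPM, the counts scaled to the TMM-normalized library size. The marker values above are the exception, being scaled to the library total without TMM. No spike-in RNA is listed, so every change is relative to the other genes. Fewer mitochondria per cell and less RNA per mitochondrion cannot be told apart in bulk RNA. By the study's methods both kinds of RNA come from a cytosolic lysate, and how much mitochondrial RNA entered it is not given.

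With both compounds all 6 members fell in the polysome fraction, while no member passed the test in total RNA. ATP6 and ATP8 are carried on 1 mRNA, so their values are not independent of each other. Relative to total RNA, polysome-associated mRNA fell between 3.35-fold (COX2) and 5.45-fold (ATP6) with CID661578 and between 1.74-fold (CYTB) and 3.3-fold (ATP8) with cercosporamide. This change of the polysome to total ratio against DMSO is called the TE change below, as is usual for polysome profiling. A gene was called where edgeR's quasi-likelihood test gave a Benjamini-Hochberg adjusted p, over all 12058 genes, below 0.15 and the change exceeded 1.2-fold. With CID661578, 6 of 6 members were called lower in TE, beside 0.199% of all genes tested (24 genes). These 24 genes include the 6 members, 4 mitochondrially encoded complex I mRNAs, 5 copies of members in the nuclear genome and 2 mitochondrial tRNA genes. With cercosporamide, 6 of 6 members were also called lower, beside 12.6% of all genes. The DMSO libraries are shared by both comparisons. Across members the median TE change was -2.36 on the log2 scale with CID661578 and -1.52 with cercosporamide, while the medians of all genes were 0.0315 and -0.000503.

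**Figure D1:**
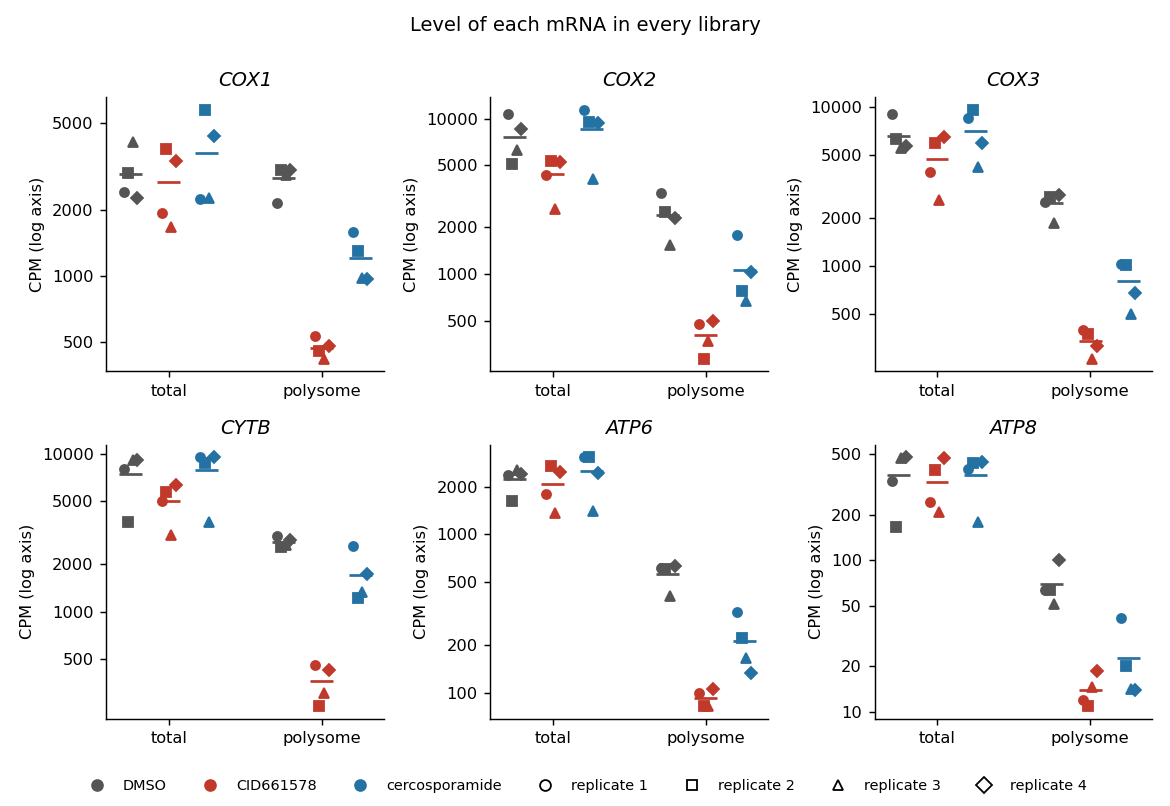
Level of each member in CPM (log axis, scaled for each gene) in the total and polysome libraries of DMSO, CID661578 and cercosporamide. There is 1 point per library, the point shape gives the replicate and the line the mean of 4 libraries. In the polysome fraction all CID661578 points lie below all DMSO points for each gene, whereas the treatments overlap in total RNA.

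With DMSO, the members took 2.63% ± 0.561 (SD, n = 4) of all counts in total RNA and 1.25% ± 0.174 in polysome-associated RNA. Per kilobase of gene, COX2 was highest in total RNA at 11180 ± 3602 CPM (SD, n = 4), followed by COX3 at 8397 ± 2063 CPM, CYTB at 6531 ± 2237 CPM, ATP6 at 3291 ± 609 CPM, COX1 at 1899 ± 533 CPM and ATP8 at 1749 ± 707 CPM. In this order of levels, the gaps from COX2 to COX3, from COX3 to CYTB and from COX1 to ATP8 were smaller than the larger SD of the 2 neighbours. Divided only by the bases that no other gene covers, ATP8 rose above COX1, with 2249 CPM per kilobase. This value is still too low, since reads that reach into the shared bases are dropped, so the order of ATP8 and COX1 depends on the counting. In polysome-associated RNA the order per kilobase was COX2 at 3517 ± 1065 CPM, COX3 at 3157 ± 528 CPM, CYTB at 2419 ± 182 CPM, COX1 at 1807 ± 279 CPM, ATP6 at 823 ± 153 CPM and ATP8 at 338 ± 103 CPM. COX1 stood ahead of ATP6 in polysomes and behind it in total RNA.

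COX1 differed from the other members before any compound was added. Its polysome to total ratio with DMSO was 0.968, a log2 ratio of -0.05 (95% interval -0.52 to 0.42, adjusted p = 0.889 in edgeR's quasi-likelihood test). The other 5 members were called lower in polysome-associated than in total RNA with DMSO, from 2.56-fold (CYTB, adjusted p = 8.25e-05) to 4.94-fold (ATP8, adjusted p = 1.83e-07), beside 29.6% of all genes called lower. With CID661578, 6 of 6 were called lower, from 5.38-fold (COX1) to 22.6-fold (ATP8), beside 27.2% of all genes. With cercosporamide, 6 of 6 were called lower, from 2.83-fold (COX1) to 16.3-fold (ATP8), beside 31.6% of all genes.

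The order of these ratios among the members was compared plate by plate. The log2 ratio of COX1 exceeded that of each other member on 12 of 12 plates, by a mean of 1.11 (CYTB, SD 0.549) to 2.31 (ATP8, SD 0.431), each with an adjusted p of 0.000666 over 15 pairs of members in an exact two-sided sign-flip permutation test, whose smallest possible unadjusted p is 0.000488 with 12 plates. Among COX2, COX3 and CYTB the mean differences over all plates did not pass (adjusted exact p = 0.716 for COX2 and COX3, 0.123 for COX2 and CYTB and 0.128 for COX3 and CYTB), and their order varied with the treatment. CYTB exceeded COX2 on 4 of 4 plates with DMSO (mean 0.31, log2) and on 4 of 4 with cercosporamide (mean 0.86), whereas COX2 exceeded CYTB on 4 of 4 plates with CID661578 (mean 0.37). CYTB also exceeded COX3 on 4 of 4 plates with cercosporamide (mean 0.96). Each of these 3 exceeded ATP6 and ATP8 on 12 of 12 plates, by means from 0.59 (COX3 over ATP6) to 1.2 (CYTB over ATP8), again with an adjusted exact p of 0.000666. ATP6 exceeded ATP8 on 10 of 12 plates by a mean of 0.29 ± 0.305 (SD, adjusted exact p = 0.0116), although both lie on 1 mRNA. The sign flips treat the 12 plates as independent, although plates of the same replicate number share a batch. Within a treatment, or with the 4 replicates as the units, no exact p below 0.125 is possible. COX1 is the longest of these genes (1542 bases) and ATP8 the shortest (207 bases), while COX2 (684 bases) and ATP6 (681 bases) are of similar length. As ATP8 and ATP6 share 1 mRNA, gene length is not mRNA length for them. Whether length bears on the ratios was not tested.

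**Figure D2:**
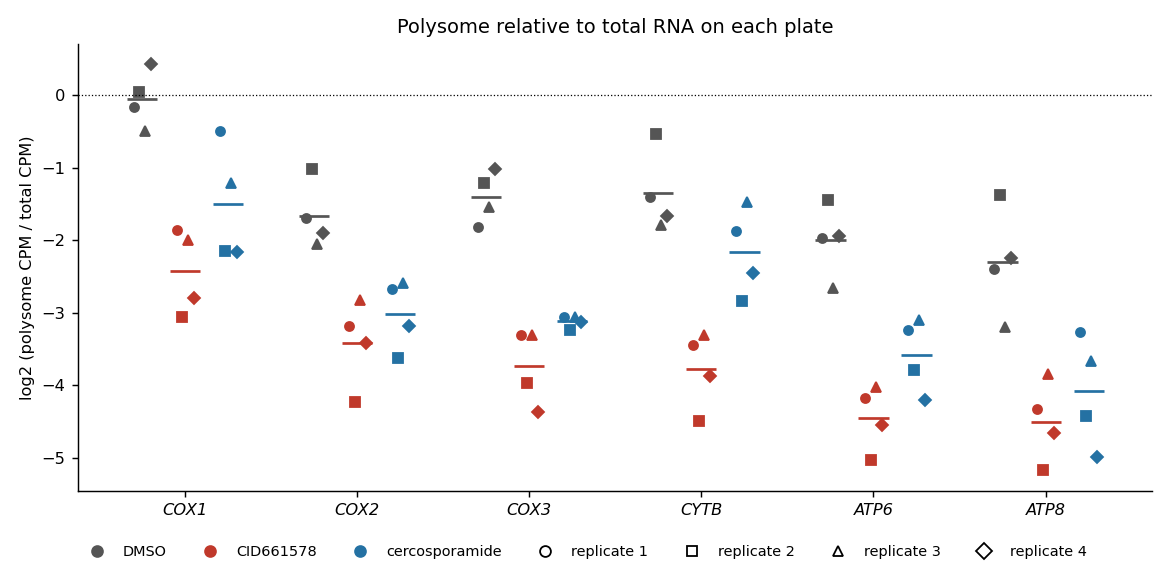
Log2 of polysome CPM over total CPM of the same plate for each member, where 0 means equal levels in both fractions. There is 1 point per plate, with colour for the treatment, point shape for the replicate and the line for the mean of 4 plates. COX1 with DMSO lies around 0, and the CID661578 plates lie below the DMSO plates for all 6 members.

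COX1 encodes the catalytic core subunit of cytochrome c oxidase (complex IV), which holds the site where oxygen is reduced. In total RNA it measured 2416, 2940, 4084 and 2273 CPM in DMSO replicates 1 to 4, 1941, 3784, 1674 and 3347 CPM with CID661578, and 2240, 5743, 2260 and 4361 CPM with cercosporamide. These 3 groups overlapped. In polysome-associated RNA it measured 2151, 3042, 2897 and 3059 CPM with DMSO, 536, 456, 421 and 480 CPM with CID661578, and 1587, 1301, 979 and 973 CPM with cercosporamide. Here the groups were fully separate, DMSO highest and CID661578 lowest. The log2 ratio of polysome to total RNA was -0.17, 0.05, -0.50 and 0.43 on the DMSO plates, -1.86, -3.05, -1.99 and -2.80 with CID661578 and -0.50, -2.14, -1.21 and -2.16 with cercosporamide. Each treated plate lay below the DMSO plates, although cercosporamide replicate 1, at -0.497, lay next to the lowest of them, at -0.496. The TE of COX1 fell 5.21-fold with CID661578 (log2 change -2.38, SE 0.325, adjusted p = 0.000232) and 2.74-fold with cercosporamide (log2 change -1.46, SE 0.323, adjusted p = 0.0037) by edgeR's quasi-likelihood test.

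COX2 encodes the subunit that takes up electrons from cytochrome c and passes them to COX1. Its total RNA level was 10640, 5073, 6315 and 8559 CPM with DMSO, 4319, 5345, 2628 and 5296 CPM with CID661578, and 11430, 9561, 4071 and 9306 CPM with cercosporamide. The CID661578 values were low but replicate 2 and replicate 4 exceeded the lowest DMSO library. Polysome-associated COX2 was 3301, 2499, 1529 and 2294 CPM with DMSO, 477, 285, 369 and 497 CPM with CID661578, and 1787, 775, 673 and 1028 CPM with cercosporamide. All CID661578 libraries lay below the DMSO libraries, whereas cercosporamide replicate 1 lay above DMSO replicate 3. On the log2 scale, the polysome to total ratio was -1.69, -1.02, -2.05 and -1.90 with DMSO, -3.18, -4.23, -2.83 and -3.41 with CID661578 and -2.68, -3.63, -2.60 and -3.18 with cercosporamide. Neither compound's ratios overlapped those of DMSO. TE fell 3.35-fold with CID661578 (log2 change -1.74, SE 0.321, adjusted p = 0.0111) and 2.55-fold with cercosporamide (log2 change -1.35, SE 0.320, adjusted p = 0.00597). This was the smallest TE change of the 6 with CID661578, and without replicate 2 it became -1.27 with an adjusted p of 0.674 in edgeR.

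COX3 encodes the third mitochondrially made subunit of complex IV. Its levels in total RNA were 8958, 6247, 5475 and 5653 CPM with DMSO, 3912, 5905, 2581 and 6475 CPM with CID661578, and 8526, 9591, 4175 and 5901 CPM with cercosporamide, and the groups overlapped. In polysome-associated RNA they were 2538, 2699, 1874 and 2789 CPM with DMSO, 395, 375, 262 and 313 CPM with CID661578, and 1025, 1020, 501 and 677 CPM with cercosporamide. All 3 groups were separate in this fraction. The log2 ratio was -1.82, -1.21, -1.55 and -1.02 on DMSO plates, -3.31, -3.98, -3.30 and -4.37 with CID661578, and -3.06, -3.23, -3.06 and -3.12 with cercosporamide. The cercosporamide plates of COX3 lay close together (SD 0.0828, against 0.479 to 0.805 for the other members with this compound), and every CID661578 plate was below them. TE fell 5.06-fold with CID661578 (log2 change -2.34, SE 0.296, adjusted p = 7.17e-05) and 3.29-fold with cercosporamide (log2 change -1.72, SE 0.293, adjusted p = 0.000511).

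CYTB encodes cytochrome b, the mitochondrially made subunit of complex III, in which electrons from ubiquinol are divided between the paths of the Q cycle. In total RNA it measured 7983, 3701, 9066 and 9058 CPM with DMSO, 5047, 5720, 3042 and 6347 CPM with CID661578, and 9491, 8765, 3681 and 9443 CPM with cercosporamide. DMSO replicate 2 and cercosporamide replicate 3 were low within their groups, and all groups overlapped. In polysome-associated RNA the DMSO libraries held 3009, 2554, 2628 and 2849 CPM, the CID661578 libraries 461, 253, 309 and 432 CPM, and the cercosporamide libraries 2596, 1224, 1327 and 1728 CPM. The CID661578 libraries were far below the others, and cercosporamide replicate 1 fell inside the DMSO range. The log2 ratio was -1.41, -0.54, -1.79 and -1.67 with DMSO, -3.45, -4.50, -3.30 and -3.88 with CID661578, and -1.87, -2.84, -1.47 and -2.45 with cercosporamide. CYTB was thus the only member whose cercosporamide plates overlapped the DMSO plates. TE fell 5.37-fold with CID661578 (log2 change -2.42, SE 0.340, adjusted p = 0.000318) and 1.74-fold with cercosporamide (log2 change -0.80, SE 0.336, adjusted p = 0.106). The cercosporamide value passed the study's threshold of 0.15 but not 0.05; without replicate 2 it was -0.31 (adjusted p = 0.649) and without the shallow cercosporamide replicate 4 it was -0.77 (adjusted p = 0.209), both in edgeR.

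ATP6 encodes the subunit of the membrane part of ATP synthase (complex V) that forms the proton path. Its total RNA level was 2382, 1630, 2552 and 2402 CPM with DMSO, 1798, 2695, 1353 and 2465 CPM with CID661578, and 3070, 3058, 1405 and 2446 CPM with cercosporamide. These values overlapped. Polysome-associated ATP6 was 611, 599, 405 and 626 CPM with DMSO, 99.4, 82.1, 82.9 and 106 CPM with CID661578, and 325, 220, 164 and 133 CPM with cercosporamide. The 3 groups were separate, in the order DMSO, cercosporamide, CID661578. The log2 ratio was -1.96, -1.44, -2.66 and -1.94 with DMSO, -4.18, -5.04, -4.03 and -4.55 with CID661578, and -3.24, -3.80, -3.10 and -4.20 with cercosporamide. Of the 6, ATP6 had the lowest log2 TE change with CID661578, -2.45 (SE 0.306, adjusted p = 7.17e-05), a 5.45-fold fall. With cercosporamide it fell 2.99-fold (log2 change -1.58, SE 0.305, adjusted p = 0.00127).

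ATP8 encodes a small subunit of the same membrane part. In total RNA it was counted at 335, 166, 469 and 479 CPM with DMSO, 240, 393, 208 and 474 CPM with CID661578, and 402, 435, 180 and 442 CPM with cercosporamide, with overlap of all groups. Its polysome-associated level was 63.8, 63.9, 51.2 and 101 CPM with DMSO, 12.0, 10.9, 14.5 and 18.7 CPM with CID661578, and 41.9, 20.2, 14.2 and 13.9 CPM with cercosporamide. All treated libraries lay below the DMSO libraries, and the compounds overlapped each other. The log2 ratio was -2.39, -1.38, -3.19 and -2.25 with DMSO, -4.32, -5.17, -3.84 and -4.66 with CID661578, and -3.26, -4.43, -3.66 and -4.99 with cercosporamide. TE fell 4.57-fold with CID661578 (log2 change -2.19, SE 0.359, adjusted p = 0.00272) and 3.3-fold with cercosporamide (log2 change -1.72, SE 0.363, adjusted p = 0.00244).

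ATP8 and ATP6 lie on the same mRNA, and their counts were also set against each other. ATP6 had 6.61 counts per ATP8 count in total RNA with DMSO (geometric mean of 4 libraries, range 5.02 to 9.81) and 8.15 in polysome-associated RNA (range 6.22 to 9.58). With CID661578 these means were 6.45 and 6.69, and with cercosporamide 6.94 and 9.84. The ranges of total and polysome-associated RNA overlapped with each treatment, least with cercosporamide (5.54 to 7.81 against 7.76 to 11.5).

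Replicates were examined one by one, each treated plate against the DMSO plate of the same number. With CID661578, TE was lower in 4 of 4 replicates for all 6 members, beside 6.25% of all genes. The changes ranged from -0.65 (ATP8, replicate 3) to -3.96 (CYTB, replicate 2). Replicate 3 gave the smallest change for every member but COX3, for which replicate 1 did. With cercosporamide TE was lower in 4 of 4 replicates for 5 members, beside 15.3% of all genes, and CYTB was lower in 3 of 4, with 0.31 in replicate 3. A DMSO plate enters the changes of both compounds with its number. On separate plates, the CID661578 ratios of all 6 members lay below all DMSO ratios, beside 1.68% of all genes, and the cercosporamide ratios of 5 members did, beside 8% of all genes.

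In total RNA, neither compound changed a member past the threshold in edgeR's quasi-likelihood test. With CID661578, 0 of 6 were called, beside 0.133% of all genes called lower. At an unadjusted p below 0.05 there were 3, namely COX2 (log2 change -0.82, SE 0.233, adjusted p = 0.296), COX3 (log2 change -0.53, adjusted p = 0.659) and CYTB (log2 change -0.62, adjusted p = 0.69), and DESeq2 called 1, COX2 (adjusted p = 0.0808). COX1, ATP6 and ATP8 had log2 changes from -0.17 to -0.23 in total RNA. With cercosporamide, 0 of 6 were called in total RNA, beside 0.0912% of all genes called lower, with 0 at an unadjusted p below 0.05 and 0 by DESeq2. These log2 changes lay between -0.03 (ATP8) and 0.18 (COX1). Their 95% intervals reached from -0.69 (ATP8) to 0.74 (COX1), and changes within a member's interval are not excluded. For no member did the 4 treated total libraries all lie below, or all above, the 4 DMSO libraries, which 1.29% of all genes did downward with CID661578 and 2.07% with cercosporamide.

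In polysome-associated RNA alone, 6 of 6 members were called lower with CID661578, beside 3.96% of all genes. The falls ran from 4.89-fold (ATP8, log2 change -2.29, adjusted p = 2.02e-05) to 7.85-fold (CYTB, log2 change -2.97, adjusted p = 6.52e-09) in edgeR's quasi-likelihood test. Ordered by p over all 12058 genes, COX3 and CYTB stood first and second, and COX1, ATP6 and COX2 at 6, 7 and 9. With cercosporamide 6 of 6 were called lower, beside 13.8% of all genes, from 1.68-fold (CYTB, adjusted p = 0.00686) to 3.16-fold (COX3, adjusted p = 4.51e-06). The polysome CPM of all CID661578 libraries lay below all DMSO libraries for 6 members, beside 2.92% of all genes, and those of cercosporamide for 4 members, beside 5.73% of all genes, COX2 and CYTB overlapping. Together the members took 0.193% ± 0.0372 (SD, n = 4) of polysome counts with CID661578 and 0.529% ± 0.203 with cercosporamide. With each replicate left out in turn, 6 of 6 were called with both compounds.

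The 2 compounds were then tested against each other, at 40 µM CID661578 and 5 µM cercosporamide. The TE change was called lower with CID661578 than with cercosporamide for 3 of 6 members, beside 7.57% of all genes called lower. CYTB differed most, 3.08-fold (log2 difference -1.62, 95% interval -2.31 to -0.93, adjusted p = 0.00857 in edgeR). COX1 differed by -0.92 on the log2 scale (95% interval -1.58 to -0.27, adjusted p = 0.0856) and ATP6 by -0.87 (95% interval -1.49 to -0.24, adjusted p = 0.0874). For COX3 the log2 difference was -0.62 (95% interval -1.22 to -0.02, adjusted p = 0.212), for ATP8 -0.47 (95% interval -1.23 to 0.28, adjusted p = 0.491) and for COX2 -0.39 (95% interval -1.05 to 0.26, adjusted p = 0.513), so a difference of more than 2-fold was not outside these intervals. The plates of CID661578 lay entirely below those of cercosporamide for COX3 and CYTB, beside 5.07% of all genes. The calls of COX1 and ATP6 were lost without replicate 1 (adjusted p = 0.253 and 0.227) and without replicate 2 (adjusted p = 0.258 and 0.317), and that of COX1 without replicate 3 (adjusted p = 0.153).

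The remaining mitochondrially encoded mRNAs are the 7 subunits of complex I, the NADH dehydrogenase. With CID661578 the TE of 4 of 7 fell, beside 0.199% of all genes called lower. The log2 changes of all 7 ran from -2.90 (ND3) to -1.10 (ND4, adjusted p = 0.472). Of these mRNAs, 7 of 7 had an unadjusted p below 0.05 and DESeq2 called 5. With cercosporamide 5 of 7 fell, in DESeq2 as well, beside 12.6% of all genes called lower in edgeR. The extremes with this compound were ND3 at -2.74 and ND6 at -0.66 (adjusted p = 0.259). The members' own range with CID661578, from -2.45 to -1.74, lay inside that of the complex I mRNAs. Neither mitochondrial ribosomal RNA was called in TE with CID661578 by edgeR, while 1 had an unadjusted p below 0.05 and DESeq2 called 1, RNR1. The TE change of RNR2, the large ribosomal RNA, was -0.07 with CID661578 (adjusted p = 0.965) and ran from -1.16 to 1.02 over the replicates, whereas with cercosporamide it was -2.09 (adjusted p = 0.000597). The difference between the compounds was 2.02 on the log2 scale for RNR2 (adjusted p = 0.00541), in the direction opposite to that of CYTB, COX1 and ATP6. RNR1, the small ribosomal RNA, had -1.37 (adjusted p = 0.308) with CID661578 and -2.15 (adjusted p = 0.000462) with cercosporamide. Reads from ribosomal RNA were removed by the authors before counting, so these values describe what was left.

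**Figure D3:**
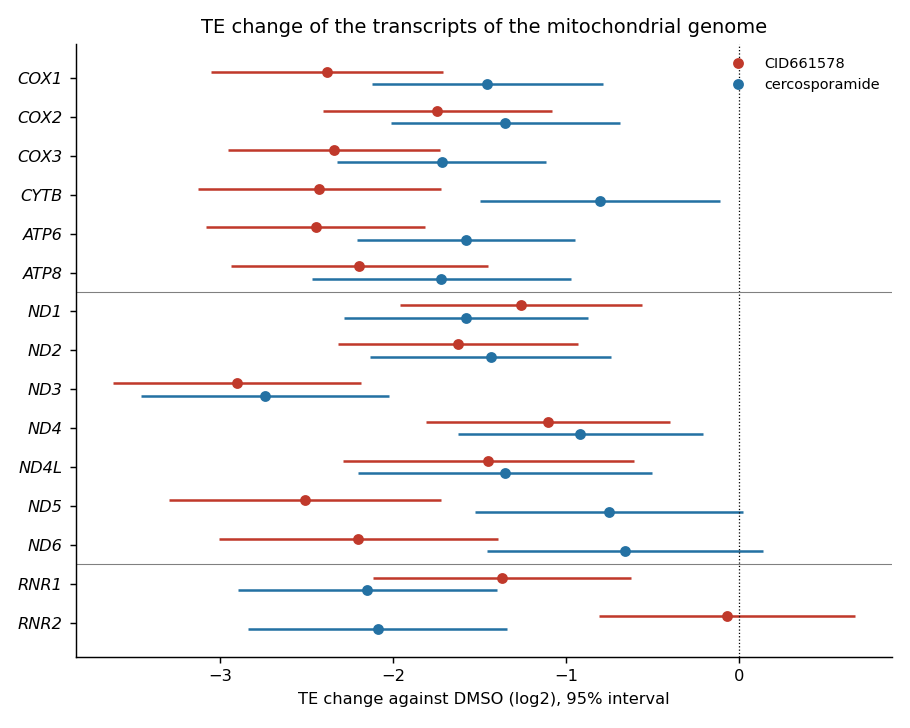
TE change against DMSO on the log2 scale for the 6 members (top), the 7 complex I mRNAs (middle) and the 2 ribosomal RNAs (bottom) of the mitochondrial genome. Lines give the 95% interval of the edgeR fit over 4 replicates. All intervals of the 6 members lie below 0, and CYTB shows the widest gap between the compounds among them.

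Parts of the mitochondrial genome were copied into the nuclear genome, and these copies share reads with the members. A copy of the stretch from COX1 to COX3 lies on chromosome 1 of GRCh38, where RefSeq names MTCO1P12 (chr1:631074-632616), MTCO2P12 (chr1:632757-633438), MTATP8P1 (chr1:633535-633741), MTATP6P1 (chr1:633696-634376) and MTCO3P12 (chr1:634376-634922). Of all windows of 50 bases, the read length, the share found without a mismatch in this stretch was 49.4% for COX1, 46.7% for ATP6, 30.9% for COX3, 29% for COX2, 8.23% for ATP8 and 0% for CYTB. The counts of the copies reached 28.8% to 34.8% of the COX1 count for MTCO1P12, 33.1% to 38.6% of the ATP6 count for MTATP6P1, and 0% to 6.11% of the ATP8 count for MTATP8P1. The TE changes of the copies with CID661578 were -2.45 (MTCO1P12), -1.91 (MTCO2P12), -2.37 (MTCO3P12) and -2.44 (MTATP6P1), all called lower. With the counting settings used, a read that matches both places is counted at both, so counts of members and copies are not separate measurements. The stretch holds no copy of CYTB, so the 0% of CYTB follows from the choice of stretch, and copies elsewhere were not searched. The TE change of CYTB with CID661578, -2.42, lay within the range of the other members. With cercosporamide it was -0.80, the smallest fall among the members. Whether shared reads bear on these changes was not tested.

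The nuclear partners of the members were read from lists of genes for the same complexes. Complex III has 9 nuclear-encoded subunits that were tested, complex IV 12 and complex V 18. With CID661578 none of these passed the TE test in edgeR in either direction, beside 0.207% of all genes. Among these subunits 0 had an unadjusted p below 0.05 and DESeq2 called 0. Their median log2 TE changes were -0.13, 0.05 and 0.06, and the single genes lay between -0.56 and 0.44. None of 33 assembly factors, 26 genes for mitochondrial transcription and RNA processing and 15 mitochondrial translation factors passed either, with 3, 4 and 1 at an unadjusted p below 0.05 and 0 called by DESeq2. With cercosporamide, 12.6% of all genes were called lower in TE and 1907 of 12058 higher. The TE of 3 of 9 complex III, 10 of 12 complex IV and 8 of 18 complex V subunits fell with this compound. Their medians over all tested subunits were -0.33, -0.77 and -0.50, and 1 complex V subunit rose. The largest falls were those of UQCRQ in complex III (-1.28, adjusted p = 0.002), COX7C in complex IV (-1.12, adjusted p = 0.0042) and ATP5F1E, the epsilon subunit of ATP synthase (-1.42, adjusted p = 0.0016), while ATP5F1A, its alpha subunit, rose (0.59, adjusted p = 0.131, higher in 3 of 4 replicates). Among assembly factors 13 of 33 fell and 1 rose, with SURF1 (-1.29, adjusted p = 0.0212) and SCO1 (0.60, adjusted p = 0.117), both needed to build complex IV, at the ends. SCO1 was higher in 3 of 4 replicates. In DESeq2 no complex V subunit and no assembly factor rose with cercosporamide, and 3 complex III, 10 complex IV and 11 complex V subunits and 13 assembly factors fell. These adjusted p-values are from edgeR's quasi-likelihood test.

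Genes that make, process and translate mitochondrial mRNAs rose as well as fell with cercosporamide. Of all 12058 genes tested, 1907 were called higher in TE and 1515 (12.6%) lower with this compound. Of 26 genes for transcription, RNA processing and stability, 13 rose in TE and 1 fell. The gene that fell was SLIRP (log2 change -0.87, adjusted p = 0.0294 in edgeR), which binds mitochondrial mRNAs together with LRPPRC, and the largest rise was that of FASTKD2 (1.55, adjusted p = 0.000597), an RNA-binding protein of the mitochondrial matrix. Of 15 translation factors 3 fell and 4 rose. They included TACO1, the translational activator of COX1 (-1.26, adjusted p = 0.0328, mean polysome level 8.46 CPM with DMSO and 4.86 CPM with cercosporamide), and GUF1, a mitochondrial elongation factor (1.19, adjusted p = 0.0364). Over all genes, 28.4% were called in either direction with cercosporamide and 0.207% with CID661578.

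**Figure D4:**
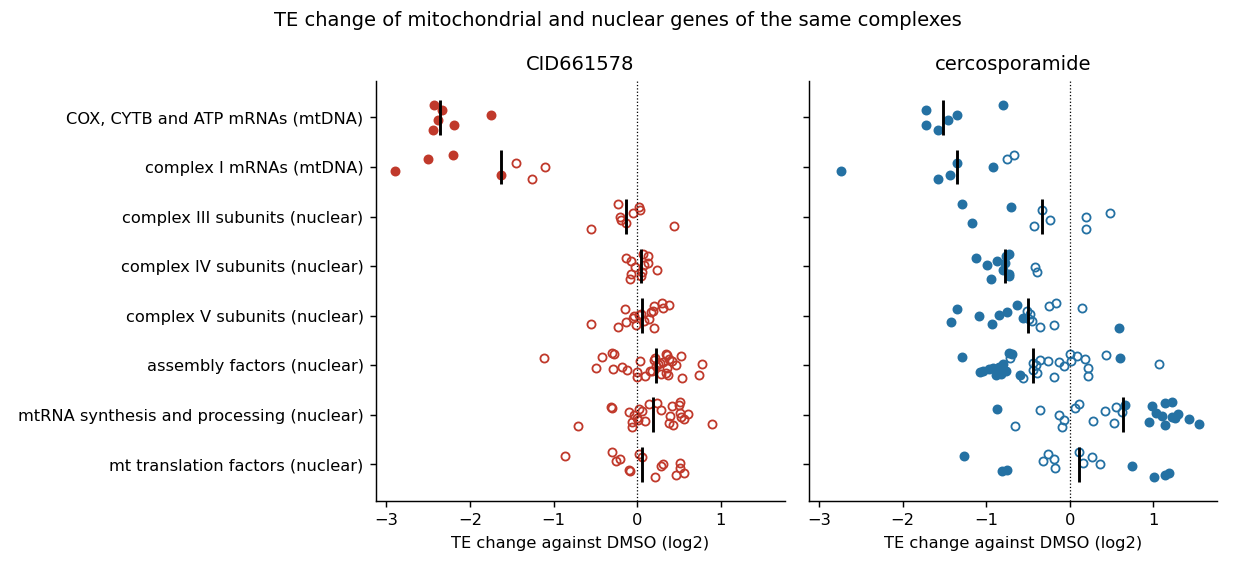
TE change against DMSO on the log2 scale for each tested gene, with CID661578 on the left and cercosporamide on the right. The rows are the 6 members, the complex I mRNAs and 6 lists of nuclear genes. Filled points passed the test, open points did not, and the vertical bar is the median. With CID661578 filled points occur in the mitochondrially encoded lists alone, whereas with cercosporamide 10 of 12 nuclear complex IV subunits are filled too. Of all genes, 0.207% passed with CID661578 and 28.4% with cercosporamide.

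Genes outside the mitochondrial genome with the most similar profile were sought among 7416 genes whose mean log2 CPM was at least 3, leaving out the nuclear copies. The measure was Pearson's r between a gene's log2 polysome to total ratio and the mean of the 6 members over the 12 plates, which share treatments and library depth, and it is given as a description. The nearest were SNAR-B2 (r = 0.857), OGFOD3 (0.855), JMJD8 (0.845), STK10 (0.841) and TMC6 (0.823). SNAR-B2 is a small noncoding RNA of a multicopy family whose reads cannot be assigned to 1 copy. Of these genes it alone was called lower in TE with CID661578 (-1.50, adjusted p = 0.0238 in edgeR). With cercosporamide, SNAR-B2 (-1.22, adjusted p = 0.0108), OGFOD3 (-0.897, adjusted p = 0.124) and TMC6 (-1.02, adjusted p = 0.106) were called lower in edgeR. JMJD8 and STK10 were not, and 12.6% of all genes were. By Pearson's r the members themselves lay between 0.903 (CYTB) and 0.989 (ATP6). The complex I mRNAs lay between 0.832 and 0.95, RNR1 at 0.641 and RNR2 at 0.221.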

How the data were processed

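Total cytosolic and polysome-associated RNA of 12 plates was sequenced as Smart-seq2 libraries, which are primed on poly(A). The authors removed reads from ribosomal RNA with BBDuk, aligned to hg38 with HISAT2 and counted RefSeq genes with default featureCounts. The deposited counts are whole numbers for 54583 genes in 24 libraries, not normalized. Default counting ignores strand, drops reads on overlapping genes and counts multi-mapping reads at each place.

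Libraries were grouped by the labels, and members and gene lists were chosen with earlier results of these data known. Genes with a 0 in any library were removed, as in the study, which left 12058. Counts were TMM-normalized and tested with edgeR 4.0.16 in R 4.3.3 (quasi-likelihood, Benjamini-Hochberg, adjusted p below 0.15 and over 1.2-fold, the study's thresholds). The TE model held plate terms, polysome terms for each replicate and polysome by compound terms, and each fraction was fitted with replicate and treatment terms. The replicate is the batch in the study's methods. Deviations from the group mean correlated above 0.1 between same-numbered treated and DMSO libraries in 13 of 16 pairs (-0.0155 to 0.551). No 2 libraries agreed within sampling noise. The anota2seq package was not used here. The tests were checked on simulated data drawn without plate or replicate effects, so how the tests handle such effects was not checked.

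Named genes were the 6 members, the extremes of each fixed list among genes called, and the 5 most similar genes. Alternatives were other size factors, filters and thresholds, no replicate block, no plate terms, 1 compound at a time, DESeq2 1.42.0, an analysis of partial variance and left-out replicates.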

Additional observations from a re-analysis of the deposited data

Results flagged for a closer look

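In 3 of 54 groups of 4 libraries or plates, 1 value stood apart from the other 3 by Dixon's criterion, which chance flags in about 1 in 20 groups. Cercosporamide replicate 3 was low in total RNA for CYTB, at 3681 CPM beside 8765 to 9491 CPM, and for ATP8, at 180 CPM beside 402 to 442 CPM. DMSO replicate 3 was low in polysome-associated RNA for ATP6, at 405 CPM beside 599 to 626 CPM.

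The TE changes of 3 members differed between the compounds by edgeR's test of the difference itself. The log2 difference, CID661578 minus cercosporamide, was -1.62 for CYTB (adjusted p = 0.00857), -0.92 for COX1 (adjusted p = 0.0856) and -0.87 for ATP6 (adjusted p = 0.0874), and the doses were 40 µM and 5 µM. CYTB fell further with CID661578 in 4 of 4 replicates, and so did COX1, COX2, COX3 and ATP6. ATP8 did so except in replicate 4 (-2.41 with CID661578, -2.74 with cercosporamide). The share of all genes that did so was not counted.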

How the results depend on the processing

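The polysome to total ratios and the polysome-associated levels gave the same number of members called as in the report under each alternative run. For the TE change, 4 to 6 of 6 members were called with CID661578 and 5 or 6 with cercosporamide. Without the replicate block (plate terms kept), 6 of 6 members were called with each compound and 3 of 6 between the compounds, and no call changed in the other comparisons either. Without the replicate block and without plate terms, COX2 (adjusted p = 0.517) and ATP8 (0.247) lost their calls with CID661578 and CYTB (0.363) with cercosporamide. The number of members whose TE change differed between the compounds was 3 in the report, 1 at an adjusted p below 0.05, 0 without block and plate terms (3 at an unadjusted p below 0.05), 5 in the analysis of partial variance, and 1 to 3 with a replicate left out. In total RNA with CID661578 the number called was 0 in the report, 1 with library totals, 3 with no filter, 1 with DESeq2, and 0 to 1 with a replicate left out. Of 942 comparisons of a single member with its value in the report, 880 kept direction and call, 36 changed sign without being called in either fit, 17 lost the call and 9 gained it, and no called member reversed. The sign changes were those of COX1 in the ratio with DMSO (7) and of members in total RNA; the cause was not tested.

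With library totals in place of TMM, or TMM within each fraction, the median log2 polysome to total ratio of all genes with DMSO moved from -0.0145 to 0.212 and 0.26. With DESeq2 size factors, 710 genes were called lower and 1145 higher between the compounds, against 913 and 956. The depth of cercosporamide polysome replicate 4, 1592459 counts, limits ATP8 most, with 21 counts.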
